A study of Mus musculus with 12 samples.

Results

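The 56 genes described here encode the machinery of mitosis, with some transcription factors and other regulators. The machinery includes the mitotic cyclins and CDK1, the spindle checkpoint, kinetochore proteins, kinesins, condensin, the anaphase machinery and cytokinesis proteins. The genes were taken from a fixed list by gene symbol, and all 56 were found among the 50600 genes of the table. Aurora kinases and their partners were not on the list. RNA was sequenced from subcutaneous tumours that grew from 50000 injected B16F10 cells, a mouse melanoma line, in C57Bl/6 mice whose genotype is given as wild. All mice were dosed daily by oral gavage for 11 days, and the 4 groups of 3 libraries received drug vehicle, 25 mg/kg alisertib, 100 mg/kg navitoclax, or both drugs at these doses (the combination). Alisertib inhibits Aurora kinase A, and navitoclax blocks anti-apoptotic members of the BCL-2 family. The age and sex of the mice are not given in the sources used here, and the labels do not say whether any animal or tumour gave more than 1 library, so the tests reflect variation among libraries, which may be technical.

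Cells make most of these transcripts in G2 and M phase and clear them after division. In cells that have left the cycle, the DREAM complex (RB-like proteins with the MuvB core) represses these genes, and in cycling cells MuvB joins B-MYB (gene Mybl2) and then FOXM1 to activate them. Many of their promoters carry a cell cycle homology region (CHR), which MuvB binds, and CCAAT boxes, which NF-Y binds. The products then act in order: cyclin B with CDK1 starts mitosis, kinesins and centrosome proteins build the spindle, kinetochores hold chromosomes to it, the checkpoint delays anaphase, and separase and the cytokinesis proteins part the chromosomes and the cells.

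Stretches of the promoter windows of 9 of the genes are shown because they carry, or lack, CHR words or CCAAT boxes. The 9 genes cover the largest drops, intermediate ones and genes that did not fall. The stretches come from RefSeq windows on GRCm38.p6 that run from 250 bases before to 50 after a gene's RefSeq start. Each is written 5′ to 3′ on the gene's own strand. Capitals mark CHR words (TTTGAA, its reverse complement TTCAAA, or TTCGAA) and CCAAT boxes (CCAAT or its reverse complement ATTGG). No word of either kind overlaps one of the other in these stretches.
Mybl2 (chr2:163054535-163054684, plus strand): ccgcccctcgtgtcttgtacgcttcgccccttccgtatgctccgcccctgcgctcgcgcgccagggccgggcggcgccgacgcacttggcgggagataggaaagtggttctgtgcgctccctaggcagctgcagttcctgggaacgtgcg
Top2a (chr11:99024140-99024389, minus strand): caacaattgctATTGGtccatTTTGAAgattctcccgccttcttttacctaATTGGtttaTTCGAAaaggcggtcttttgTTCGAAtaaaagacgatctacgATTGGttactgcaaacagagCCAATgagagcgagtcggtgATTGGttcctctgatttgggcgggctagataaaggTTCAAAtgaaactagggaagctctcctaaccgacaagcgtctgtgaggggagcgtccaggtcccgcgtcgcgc
Mki67 (chr7:135716430-135716579, minus strand): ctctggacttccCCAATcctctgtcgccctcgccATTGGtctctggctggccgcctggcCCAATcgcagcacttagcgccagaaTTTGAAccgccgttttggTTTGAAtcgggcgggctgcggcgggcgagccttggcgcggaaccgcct
Kif15 (chr9:122950981-122951130, plus strand): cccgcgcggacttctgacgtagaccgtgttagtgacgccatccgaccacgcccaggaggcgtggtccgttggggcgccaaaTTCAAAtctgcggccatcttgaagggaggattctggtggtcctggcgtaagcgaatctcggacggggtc
Cdc25b (chr2:131186848-131186997, plus strand): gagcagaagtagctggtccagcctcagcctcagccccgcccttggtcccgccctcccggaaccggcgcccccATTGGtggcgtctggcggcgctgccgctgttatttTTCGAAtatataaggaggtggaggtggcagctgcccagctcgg
Cdk1 (chr10:69352863-69353012, minus strand): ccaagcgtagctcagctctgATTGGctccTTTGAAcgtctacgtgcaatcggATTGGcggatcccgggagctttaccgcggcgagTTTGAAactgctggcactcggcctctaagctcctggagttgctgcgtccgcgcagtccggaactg
Ccnb2 (chr9:70421505-70421654, minus strand): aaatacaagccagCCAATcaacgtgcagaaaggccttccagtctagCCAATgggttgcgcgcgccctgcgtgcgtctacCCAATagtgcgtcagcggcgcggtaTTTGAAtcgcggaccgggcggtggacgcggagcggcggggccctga
Cdc20 (chr4:118437294-118437443, minus strand): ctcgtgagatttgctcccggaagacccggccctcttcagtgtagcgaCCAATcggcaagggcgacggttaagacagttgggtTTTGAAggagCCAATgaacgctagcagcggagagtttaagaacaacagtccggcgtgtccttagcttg
Pttg1 (chr11:43425932-43426081, minus strand): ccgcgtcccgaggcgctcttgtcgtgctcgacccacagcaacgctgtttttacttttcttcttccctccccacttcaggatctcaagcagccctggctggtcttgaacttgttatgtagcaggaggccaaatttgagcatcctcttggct

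A window was at hand for 49 of the 56 genes, 4 of which have a second start, so 53 windows were searched on both strands. A CHR word was found in 40 of the 53 windows (75.5%, Wilson 95% interval 62.4 to 85.1), against 19.2% of all 32851 windows of the same length. Counted by gene it was 36 of 49 (73.5%), against 21.7% of all genes with a window. A CCAAT box was found in 36 of 53 (67.9%, 54.5 to 78.9), against 37.4% of all windows. By gene that was 33 of 49 (67.3%), against 41.1%. The intervals treat windows as separate, although the windows of the 4 genes with a second start overlap. Top2a, which encodes topoisomerase II alpha, had 4 CHR words in its window, the first bases of which stood at −179, −140, −120 and −23 from the start. Windows of Mybl2 and Pttg1 had neither word, nor did those of Cit, Kif18a, Mad2l1, Melk, Ncaph, Nuf2, Nusap1 and Plk4. The windows of Pttg1, Cit, Kif14, Kif2c and Kif4 lie wholly downstream of the gene start in GENCODE M21. For these genes, bases before that start were not searched. A match describes letters in the window and says nothing of binding. Sites read by other DREAM subunits, by B-MYB or by FOXM1 were not searched for.

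Reads counted on genes ran from 26.8 to 36.7 M (mega) per library. In vehicle 2 and combination 3, a pair of ribosomal RNA loci (Gm26917 and Gm42418) took 63.3% and 73.7% of the reads, against 13.8 to 35.4% elsewhere, which left 9.86 and 7.08 M reads on other genes, against 21.9 to 27.6 M. These libraries stand apart among the mitotic genes too: 31 of the 56 (55.4%) were lowest in both within their groups, against 35.5% of all genes tested, and 9 (16.1%) were highest in both, against 32.8% of all genes. The counts and medians of each comparison are therefore also given without them. The deposited values are read counts divided by 1 size factor per library, called normalized values below. Differences are of log2(value + 2) with the standard error after ±, from a limma fit to all 12 libraries and the 16993 genes that reached a value of 10 in 3 or more libraries. All 56 mitotic genes passed that filter. Adjusted p is Benjamini-Hochberg over the 16993 genes, with a threshold of 0.05.

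All 7 melanocyte markers (Pmel, Mlana, Tyr, Tyrp1, Dct, Mitf and Sox10) were detected in every library, with summed values of 417087 to 659280, and none passed the threshold for the alisertib effect. All 56 mitotic genes were expressed. Per kilobase of exon, mean values over the 12 libraries ran from 19.1 for Kif18a, a kinesin that limits chromosome movement, to 1281 for Ncapd2, a condensin subunit. Cdc20, an activator of the anaphase-promoting complex, stood at 1249, the proliferation marker Mki67 at 858 and Top2a at 778 on the same per-kilobase scale.

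**Figure D1:**
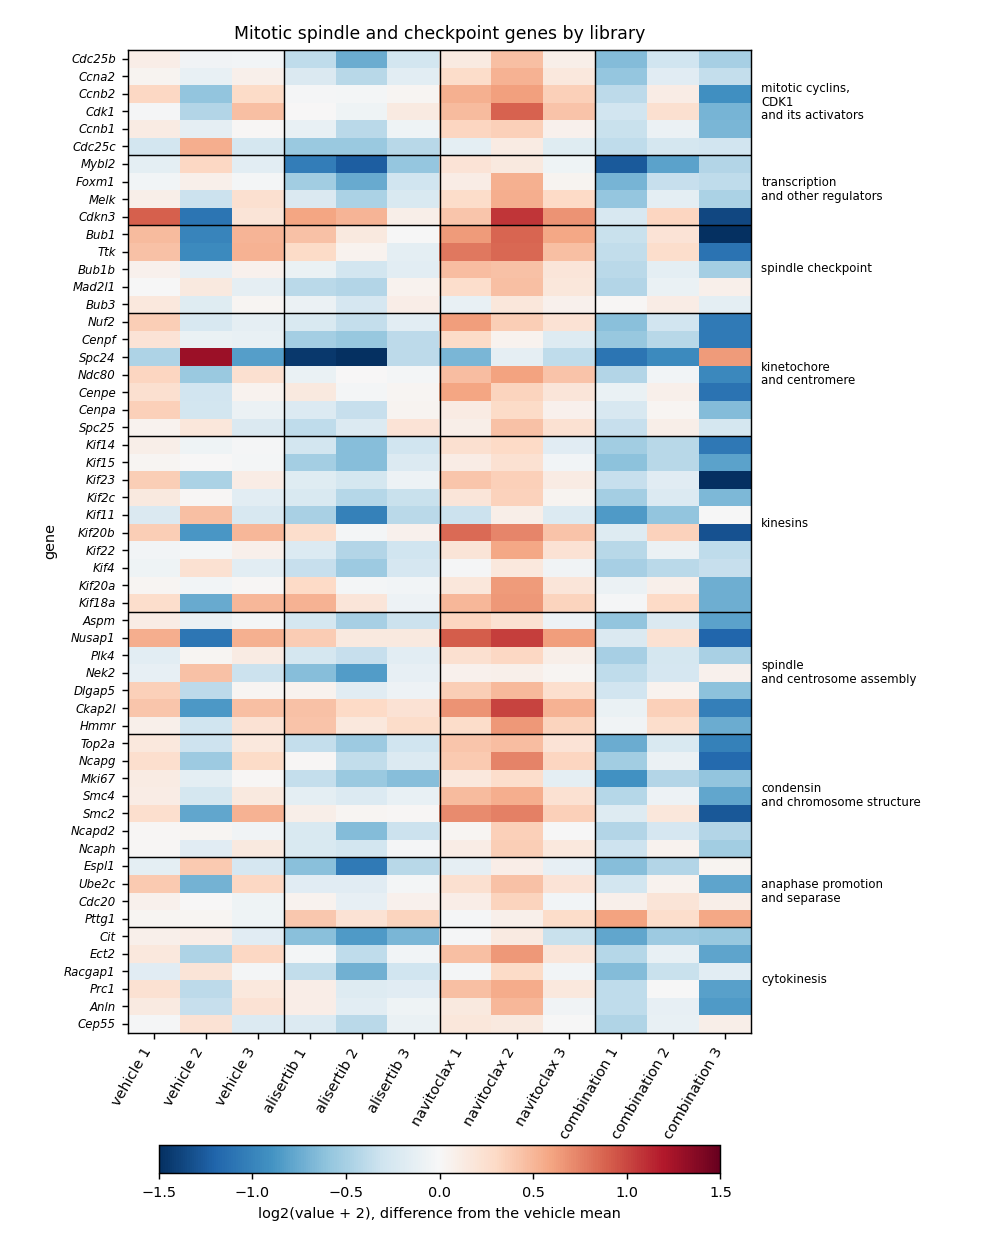
Each row is a mitotic gene, grouped by role, and each column a library; colour gives the difference of log2(value + 2) from the vehicle mean, on a scale that ends at −1.5 and 1.5. Alisertib and combination columns are mostly blue and navitoclax columns mostly red, while vehicle 2 and combination 3 differ from their groups in Bub1, Nusap1, Spc24 and others.

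Set against the vehicle mean, the mitotic genes sat lower in the libraries given alisertib and higher with navitoclax alone. The median difference over the 56 genes was −0.20, −0.35 and −0.12 in the alisertib libraries and −0.41, −0.11 and −0.68 in the combination libraries. With navitoclax it was 0.26, 0.44 and 0.16. The vehicle libraries themselves ranged from −0.14 to 0.10, while the median of all genes tested lay between −0.02 and 0.02 in every library. Below the vehicle mean were 38, 46 and 41 of the 56 genes in alisertib 1, 2 and 3 and 53, 35 and 49 in the combination libraries. Above it were 47, 55 and 39 in navitoclax 1, 2 and 3. Alisertib 3 (−0.12) and combination 2 (−0.11) lay within the range of the vehicle libraries (down to −0.14). A tumour with fewer cells in G2 and M phase and one with less RNA of these genes per cell cannot be told apart in bulk RNA.

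**Figure D2:**
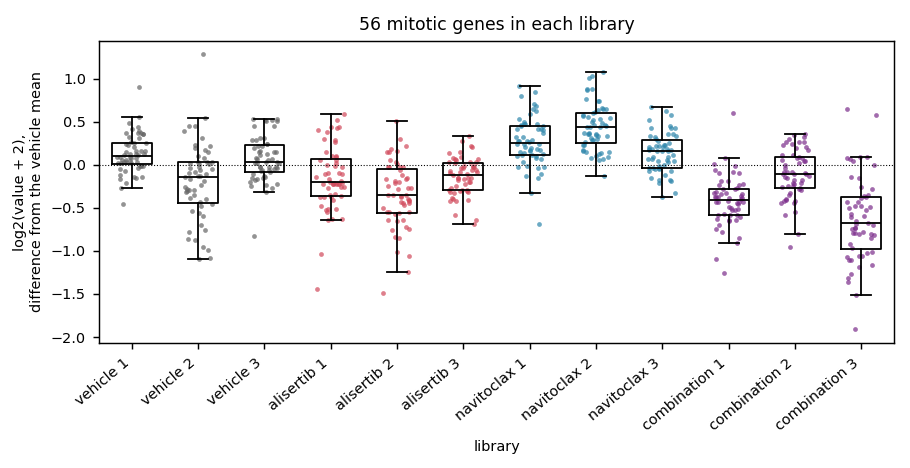
Each point is 1 of the 56 mitotic genes in 1 library, as the difference of log2(value + 2) from the vehicle mean; boxes give the median and quartiles, and whiskers reach to the last point within 1.5 box lengths. Medians run from −0.68 in combination 3 to 0.44 in navitoclax 2.

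The comparison with the most libraries set the 6 libraries given alisertib (alone or with navitoclax) against the 6 not given it, as the mean of the alisertib effect without and with navitoclax. Of the 56 mitotic genes 19 fell and 0 rose, 33.9% of them, against 1.88% of all genes tested that fell, 2.62% that rose and 4.5% in either direction. The median difference over the 56 was −0.46, against −0.01 over all genes tested, and 55 of the 56 were negative. In 15 of the 56, all 6 libraries with alisertib lay below all 6 without, against 1.6% of all genes. Without vehicle 2 and combination 3 that count was 36 of 56, against 4.93% of all genes, and 35 of the 56 passed the test, against 8.79% of all genes. Of the 56, 19 passed with edgeR (4.37% of all genes), 25 with DESeq2 (10.1%) and 43 with voom (17.8%). With the ribosomal share of each library as a covariate 40 passed (19.5% of all genes). In each of these fits but edgeR, 1 gene that passed, Pttg1, was higher.

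How many passed depended on single libraries. Of the 56 it was 5 without alisertib 1, alisertib 2 or combination 1, 6 without vehicle 1 or navitoclax 2, and 7 without navitoclax 1. It was 10 without vehicle 3 or alisertib 3, and between 16 and 21 without each of the others. Cit, Kif15, Mki67 and Mybl2 passed in all 12 of these fits. Foxm1 was lost without alisertib 1 or alisertib 2, and Cdc25b without vehicle 1 or combination 1. The 13 other genes that fell were lost in more of them. Over these fits 314 to 763 of all genes passed, against 765 with all libraries.

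**Figure D3:**
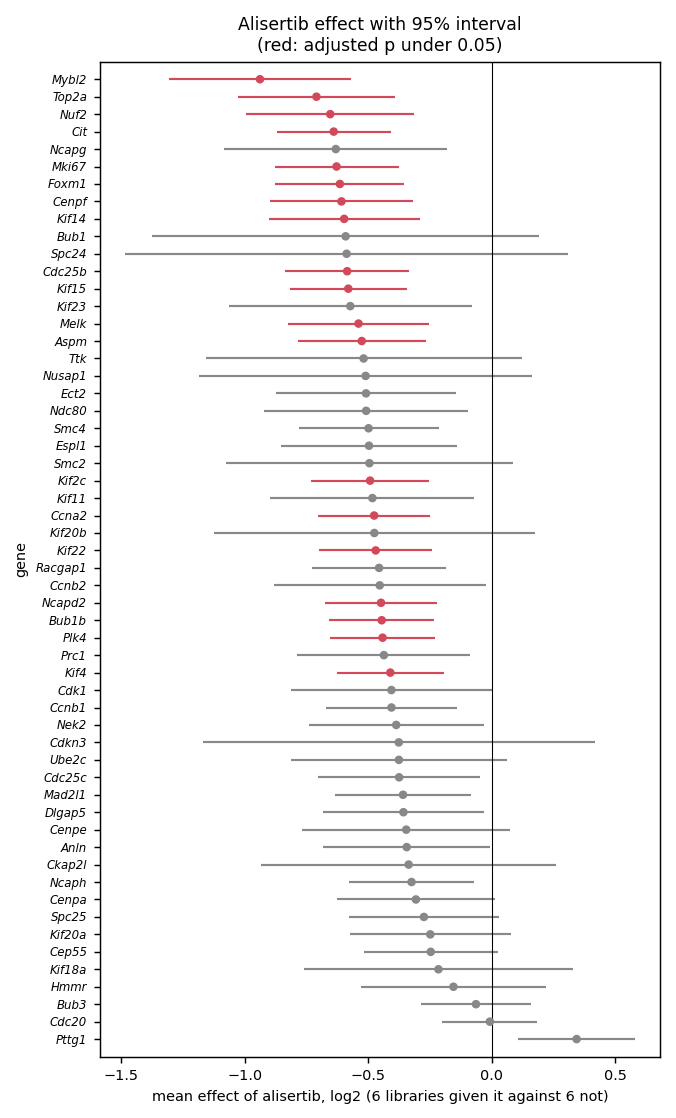
Points give the mean effect of alisertib on each of the 56 mitotic genes (6 libraries given it against 6 not, log2) and lines the 95% interval from limma; red marks the 19 genes with adjusted p under 0.05. All red points lie below 0, from −0.94 for Mybl2 to −0.41 for Kif4, and Pttg1 is the one gene with a positive estimate.

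Among the transcription factors and other regulators, 3 of 4 fell. Mybl2, which encodes B-MYB, had normalized values of 794, 1085 and 783 with vehicle and 427, 370 and 585 with alisertib. It had 1008, 973 and 835 with navitoclax and 366, 502 and 648 with the combination. No library given alisertib reached the lowest one without it, and the mean effect was −0.94 ± 0.17 (1.92-fold lower, adjusted p = 0.0112). Foxm1, the forkhead factor of G2 and M phase genes, had 4392, 4756 and 4419 with vehicle, 3143, 2672 and 3668 with alisertib, 4901, 6520 and 4658 with navitoclax and 2789, 3553 and 3474 with both. Here too the 6 libraries with alisertib lay below the 6 without, with a mean effect of −0.62 ± 0.12 (adjusted p = 0.0160). Melk, a kinase gene of proliferating cells, had 604, 456 and 672 with vehicle, 489, 411 and 487 with alisertib, 692, 835 and 699 with navitoclax and 381, 514 and 409 with both. It fell by 0.54 ± 0.13 (adjusted p = 0.0405), with vehicle 2 among the libraries given alisertib. Cdkn3, a phosphatase that acts on cyclin-dependent kinases, was at −0.38 ± 0.36 and ranged from 36.2 in combination 3 to 205 in navitoclax 2.

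Of the 6 genes for mitotic cyclins, CDK1 and its activators, 2 fell. Cdc25b, a phosphatase that switches CDK1 on, had 1775, 1607 and 1610 with vehicle and 1277, 993 and 1375 with alisertib. It had 1830, 2278 and 1762 with navitoclax and 1057, 1352 and 1180 with both, again with no overlap, and its mean effect was −0.59 ± 0.11 (adjusted p = 0.0166). Ccna2, cyclin A2, had 1816, 1644 and 1860 with vehicle, 1522, 1323 and 1591 with alisertib, 2140, 2539 and 1983 with navitoclax and 1185, 1569 and 1379 with both. It fell by 0.48 ± 0.10 (adjusted p = 0.0275) with no overlap. Ccnb1, cyclin B1 and the partner of CDK1 at mitotic entry, had 1661, 1394 and 1545 with vehicle and 1418, 1158 and 1463 with alisertib. Its values were 1917, 1965 and 1604 with navitoclax and 1216, 1433 and 948 with both. The groups overlapped and its mean effect of −0.41 ± 0.12 missed the threshold (adjusted p = 0.0857). Cdk1 itself had 1090, 811 and 1500 with vehicle, 1100, 1052 and 1204 with alisertib, 1522, 2025 and 1473 with navitoclax and 901, 1301 and 677 with both. These overlapped, at −0.41 ± 0.19 (adjusted p = 0.269), and Ccnb2 and Cdc25c also did not pass.

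The spindle checkpoint holds back anaphase until every kinetochore is attached, and 1 of its 5 genes fell. Bub1b, which encodes the checkpoint kinase-like protein BUBR1, had 1884, 1654 and 1893 with vehicle, 1683, 1496 and 1616 with alisertib, 2501, 2448 and 2042 with navitoclax and 1367, 1628 and 1270 with both. Alisertib 1 lay above vehicle 2, and all other libraries with the drug lay below all without; the mean effect was −0.45 ± 0.10 (adjusted p = 0.0271). Bub1 and Ttk, both checkpoint kinases, had estimates of −0.59 ± 0.36 and −0.52 ± 0.29, with vehicle 2 and combination 3 far below the rest. Bub1 was 419 in vehicle 2 and 221 in combination 3, against 664 to 1532 in the other 10 libraries. Bub3, which recruits checkpoint proteins to kinetochores, was at −0.06 ± 0.10 (95% interval −0.29 to 0.16), and Mad2l1 was at −0.36 ± 0.13 (adjusted p = 0.140).

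Among 7 kinetochore and centromere genes, 2 fell. Nuf2, a subunit of the NDC80 complex that grips microtubules, had 1118, 733 and 786 with vehicle, 738, 676 and 774 with alisertib, 1330, 1117 and 1006 with navitoclax and 557, 708 and 413 with both. Vehicle 2 lay among the libraries given alisertib; the mean effect was −0.65 ± 0.15 (adjusted p = 0.0388). Cenpf, a kinetochore protein of G2 and M phase, had 6258, 5053 and 5005 with vehicle, 3800, 3650 and 4115 with alisertib, 6583, 5615 and 4731 with navitoclax and 3647, 4067 and 2591 with both. It fell by 0.61 ± 0.13 (adjusted p = 0.0268), and its groups did not overlap. Cenpe, a kinetochore motor, had 1469, 1017 and 1295 with vehicle, 1376, 1226 and 1271 with alisertib, 1881, 1570 and 1413 with navitoclax and 1161, 1319 and 579 with both. Combination 3 was the lowest and the groups overlapped, at −0.35 ± 0.19 (adjusted p = 0.375). Spc24, another NDC80 complex subunit, was 1723 in vehicle 2 and 1107 in combination 3, against 251 to 646 in the other 10 libraries, the opposite of Bub1.

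Kinesins gave the largest number of falling genes, 5 of 10. Kif15, a motor that helps hold spindle poles apart, had 1211, 1191 and 1159 with vehicle and 833, 759 and 1029 with alisertib. It had 1278, 1392 and 1153 with navitoclax and 776, 887 and 677 with both. The groups did not overlap, and the mean effect was −0.58 ± 0.11 (adjusted p = 0.0130). Kif14, Kif2c, Kif22 and Kif4 fell by 0.60, 0.49, 0.47 and 0.41, with adjusted p from 0.0294 to 0.0405 and no overlap in any of them. Kif14, a motor of cytokinesis, had 1251, 1125 and 1159 with vehicle, 974, 754 and 959 with alisertib, 1392, 1443 and 1042 with navitoclax and 816, 879 and 557 with both. Kif2c, which depolymerizes microtubules at kinetochores, had 1285, 1174 and 1040 with vehicle, 991, 862 and 922 with alisertib, 1321, 1475 and 1198 with navitoclax and 814, 1005 and 727 with both. In both genes combination 3 was the lowest library. Kif22, a chromosome-bound motor, had 1081, 1093 and 1174 with vehicle, 964, 821 and 907 with alisertib, 1278, 1661 and 1293 with navitoclax and 832, 1050 and 854 with both. Kif4, also bound to chromosomes, had 1371, 1683 and 1287 with vehicle, 1133, 985 and 1206 with alisertib, 1414, 1604 and 1386 with navitoclax and 1016, 1089 and 1129 with both. Alisertib 2 was the lowest library for both of these. Kif11, the motor that separates the spindle poles, had 1001, 1590 and 986 with vehicle, 831, 573 and 878 with alisertib, 927, 1239 and 1004 with navitoclax and 642, 773 and 1162 with both. Its highest values in the vehicle and combination groups were those of vehicle 2 and combination 3, and its mean effect of −0.48 ± 0.19 missed the threshold (adjusted p = 0.189). Kif18a, Kif20a, Kif20b and Kif23 did not pass either.

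Condensin and chromosome structure genes had 3 of 7 that fell. Top2a, whose enzyme untangles sister chromosomes and whose promoter stretch above holds 4 CHR words, had 8442, 6113 and 8417 with vehicle and 5900, 5177 and 6173 with alisertib. It had 10070, 10406 and 8717 with navitoclax and 4518, 6478 and 3742 with both. Vehicle 2 overlapped the libraries given alisertib, and the mean effect was −0.71 ± 0.14 (1.64-fold lower, adjusted p = 0.0206). Mki67 had 11035, 9140 and 10205 with vehicle, 7881, 6877 and 6487 with alisertib, 11296, 12140 and 9100 with navitoclax and 5385, 7415 and 6681 with both. Its groups did not overlap, with a mean effect of −0.63 ± 0.11 (1.55-fold lower, adjusted p = 0.0118). Ncapd2 had 8963, 9044 and 8487 with vehicle, 7560, 5634 and 7073 with alisertib, 9014, 11282 and 8794 with navitoclax and 6519, 7409 and 6529 with both. It fell by 0.45 ± 0.10 (adjusted p = 0.0344) with no overlap, while the other condensin genes did not pass. Of these, Smc4, a core subunit, was nearest, at −0.50 ± 0.13 (adjusted p = 0.0535). Its values were 2166, 1674 and 2226 with vehicle, 1819, 1738 and 1854 with alisertib, 2779, 2922 and 2350 with navitoclax and 1487, 1895 and 1165 with both.

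Of 7 spindle and centrosome assembly genes, 2 fell. Aspm, a spindle pole protein, had 2709, 2355 and 2444 with vehicle, 2083, 1761 and 2000 with alisertib, 3120, 2924 and 2372 with navitoclax and 1663, 2158 and 1429 with both. The groups did not overlap, and the mean effect was −0.53 ± 0.12 (adjusted p = 0.0314). Plk4, the kinase that starts centriole duplication, had 614, 701 and 743 with vehicle, 571, 537 and 614 with alisertib, 810, 852 and 729 with navitoclax and 485, 568 and 489 with both. It fell by 0.44 ± 0.10 (adjusted p = 0.0291), and its groups touched without overlap: alisertib 3 lay just below vehicle 1. Nusap1, a microtubule-bundling protein, was 172 in vehicle 2 and 159 in combination 3, against 312 to 747 in the other 10 libraries, and its estimate was −0.51 ± 0.31.

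Cytokinesis genes had 1 of 6 that fell. Cit, the citron kinase that acts at the midbody, had 2528, 2565 and 2123 with vehicle and 1546, 1331 and 1490 with alisertib. It had 2363, 2633 and 1903 with navitoclax and 1393, 1643 and 1614 with both. The groups did not overlap, and its mean effect of −0.64 ± 0.11 had the smallest adjusted p of the 56 genes (0.00674). Anln, the actin-binding anillin of the cleavage furrow, had 4003, 2872 and 4262 with vehicle, 3915, 3291 and 3505 with alisertib, 4051, 5162 and 3537 with navitoclax and 2815, 3352 and 2023 with both. Its values overlapped, at −0.35 ± 0.15 (adjusted p = 0.259). Racgap1, a subunit of the centralspindlin complex, missed the threshold more narrowly, at −0.46 ± 0.12 (adjusted p = 0.0619).

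The anaphase genes were the role group in which 0 of 4 passed. Cdc20 had 2324, 2242 and 2125 with vehicle, 2311, 2046 and 2326 with alisertib, 2394, 2802 and 2168 with navitoclax and 2355, 2542 and 2363 with both. The libraries with and without alisertib overlapped, although all combination libraries lay above all vehicle libraries, and the mean effect was −0.01 ± 0.09 with a 95% interval of −0.20 to 0.18. That interval lies above the estimates of all 19 genes that fell. Pttg1, which encodes securin, the inhibitor of separase, had 343, 343 and 322 with vehicle and 443, 390 and 423 with alisertib. It had 331, 353 and 408 with navitoclax and 512, 402 and 503 with both. Every alisertib library was above every vehicle library, but the mean effect of 0.34 ± 0.11 did not pass (adjusted p = 0.102), although it passed as higher with DESeq2, with voom and with the ribosomal covariate. Espl1, separase itself, had 2122, 3078 and 1965 with vehicle, 1517, 1120 and 1753 with alisertib, 2130, 2508 and 2148 with navitoclax and 1504, 1720 and 2407 with both. Vehicle 2 and combination 3 were again the highest of their groups. Its estimate was −0.50 ± 0.16 (adjusted p = 0.118), and Ube2c, the ubiquitin-conjugating enzyme of the complex, at −0.38 ± 0.20.

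**Figure D4:**
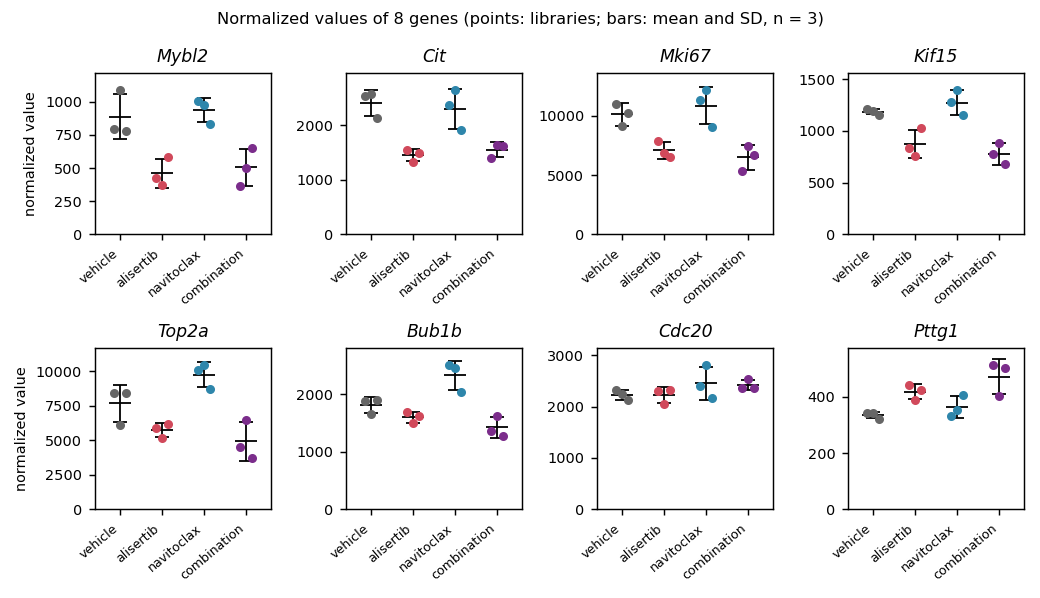
Normalized values of Mybl2, Cit, Mki67, Kif15, Top2a, Bub1b, Cdc20 and Pttg1 in each library (points), with the mean and SD of 3 libraries (bars), on axes that start at 0. Mybl2, Cit, Mki67 and Kif15 separate the libraries with alisertib from those without, Top2a and Bub1b are highest with navitoclax alone, and Cdc20 overlaps between the libraries with and without alisertib.

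The shares of windows with CHR words had overlapping intervals in the genes that fell and the rest. The words stood in 12 of 17 windows of genes that fell (70.6%, Wilson 95% interval 46.9 to 86.7). In genes that did not pass it was 28 of 36 windows (77.8%, 61.9 to 88.3). Counted by gene, it was 12 of 17 and 24 of 32 (75%). CHR words were absent from the windows of Mybl2, with the largest drop, and Pttg1, with the one positive estimate. The Pttg1 window lies downstream of its GENCODE start. So do those of Cit, Kif14, Kif2c and Kif4, all of them genes that fell, so the compared sets differ in this. Windows of Cdc20 and Cdk1 held CHR words. CCAAT boxes stood in 10 of 17 and 26 of 36 windows.

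In the separate comparisons with vehicle, 0 of the 56 genes passed. Alisertib alone moved 0.871% of all genes tested past the threshold, and the mitotic genes had a median of −0.18 with 43 negative. At an unadjusted p under 0.05 were 14 of the 56 (25.0%), against 13.02% of all genes. Without alisertib 2 it was 4 (7.14%), against 8.05% of all genes. The median was −0.12 (34 negative) without vehicle 1 and −0.31 (52 negative) without vehicle 2 or without both ribosomal-rich libraries, which left 21 at an unadjusted p under 0.05 (16.3% of all genes). The 5 with the smallest p were Cit at −0.72 ± 0.15 (adjusted p = 0.0537), Mybl2 at −0.95 ± 0.24, Mki67, Foxm1 at −0.53 ± 0.17 and Espl1 at −0.70 ± 0.23. For the combination, which moved 2.54% of all genes, the median was −0.40, with 54 negative. At an unadjusted p under 0.05 were 19 of the 56 (33.9%), against 16.9% of all genes. The median was −0.26 (47 negative) without combination 3 and −0.39 (54 negative) without both ribosomal-rich libraries, where 33 had an unadjusted p under 0.05, against 19.1% of all genes. That count was 32 without vehicle 2 (20.6% of all genes) and 31 without combination 2 (17.1%). Cit was at −0.63 ± 0.15 (adjusted p = 0.0510), followed by Kif15 at −0.61 ± 0.15, Mki67, Cenpf at −0.68 ± 0.19 and Mybl2 at −0.83 ± 0.24. These comparisons share the vehicle libraries. With edgeR 0 of the 56 passed in either (0.842% and 2.02% of all genes). With DESeq2 2 passed for alisertib and 8 for the combination (4% and 7.33%), and with voom 6 and 20 (7.3% and 12.4%). For the combination, 1 of those that passed with DESeq2 and 1 with voom was higher, Pttg1 in both.

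Navitoclax alone gave estimates on the other side. The median over the 56 was 0.27, against 0.01 over all genes, and 51 of the 56 were positive, but 0 passed, against 0.0647% of all genes, all of them lower. At an unadjusted p under 0.05 were 4 of the 56 (7.14%), close to the 6.37% of all genes. That count was 0 without vehicle 2 or navitoclax 2, 1 without navitoclax 1 or any alisertib library, 2 without combination 1, 7 without vehicle 3 and 10 without combination 3. It was 2 without both ribosomal-rich libraries, where the median was 0.20. By edgeR, DESeq2 and voom it was also 0, against 0.0471%, 0.512% and 0.224% of all genes. In 15 of the 56 every navitoclax library lay above every vehicle library, against 6.5% of all genes. The 5 with the smallest p were Bub1b at 0.36 ± 0.14, Cdk1 at 0.59 ± 0.26, Smc4 at 0.41 ± 0.18, Kif22 at 0.33 ± 0.15 and Ccna2 at 0.32 ± 0.15, each with an adjusted p of 0.704. Of these, Cdk1 overlapped, since vehicle 3 (1500) lay above navitoclax 3 (1473).

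Between the combination and navitoclax alone, which asks what alisertib does on top of navitoclax, the differences were larger. The median over the 56 was −0.69, against −0.03 over all genes, with 55 negative. At an unadjusted p under 0.05 were 45 of the 56 (80.4%), against 18.1% of all genes. With 1 library left out, that count ran from 31 without navitoclax 2 (13.7% of all genes) to 48 without combination 2 (24.8%). It was 32 without combination 3 (10.8%). Without both ribosomal-rich libraries the median was −0.58, with 45 at an unadjusted p under 0.05 (17.8% of all genes). In 47 of the 56 all combination libraries lay below all navitoclax libraries, against 14.8% of all genes. After adjustment 3 fell, against 0.224% of all genes that fell and 1.19% in either direction: Bub1b by 0.71 ± 0.14 (adjusted p = 0.0351), Top2a by 1.02 ± 0.20 (adjusted p = 0.0409) and Nuf2 by 1.06 ± 0.22 (adjusted p = 0.0472). The count of 3 rested on single libraries: it was 8 without vehicle 2, 10 without combination 2, 1 without vehicle 1 and 0 without each of the other 9, and 11 without both ribosomal-rich libraries (2.11% of all genes). It was 0 in a fit of these 2 groups alone (0.0765%), 1 with edgeR (1.07%), 25 with DESeq2 (6.46%) and 37 with voom (9.58%).

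Alisertib against vehicle and the combination against navitoclax share no library, and 43 of the 56 genes were negative in both, against 24.3% of all genes. Pttg1 alone was positive in both, against 23.3% of all genes. The difference between these effects, the interaction of the drugs, had a median of −0.41 over the 56, against −0.04 over all genes. None of the 56 passed for it (0.00588% of all genes did), and 11 (19.6%) had an unadjusted p under 0.05, against 8.53% of all genes. That count was 1 without vehicle 2 (3.81% of all genes), 2 without navitoclax 2 (7.81%) and 27 without combination 2 (19.6%). It was 4 without alisertib 1 (4.27%) or combination 3 (4.18%), and 6 without alisertib 2 (4.18%), alisertib 3 (9.95%) or navitoclax 1 (5.18%). With the ribosomal covariate it was 3 (5.61%). It was 2 without both ribosomal-rich libraries (4.33%), where the median was −0.25. Mybl2 had nearly equal estimates in both comparisons (−0.95 ± 0.24 and −0.93 ± 0.24, interaction 0.03 ± 0.34), while Top2a had −0.40 ± 0.20 and −1.02 ± 0.20 (interaction −0.62 ± 0.29, adjusted p = 0.436). Adding navitoclax to alisertib gave a median of −0.17 with 0 of the 56 past the threshold, 0% of all genes, and 0 at an unadjusted p under 0.05 (3.51% of all genes). The median was −0.06 without combination 3 or without both ribosomal-rich libraries. It was −0.30 without combination 2, where 14 had an unadjusted p under 0.05, against 9.73% of all genes. Without alisertib 3, 1 had one, against 6.16% of all genes. With edgeR, DESeq2 and voom 0 passed there too.

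**Figure D5:**
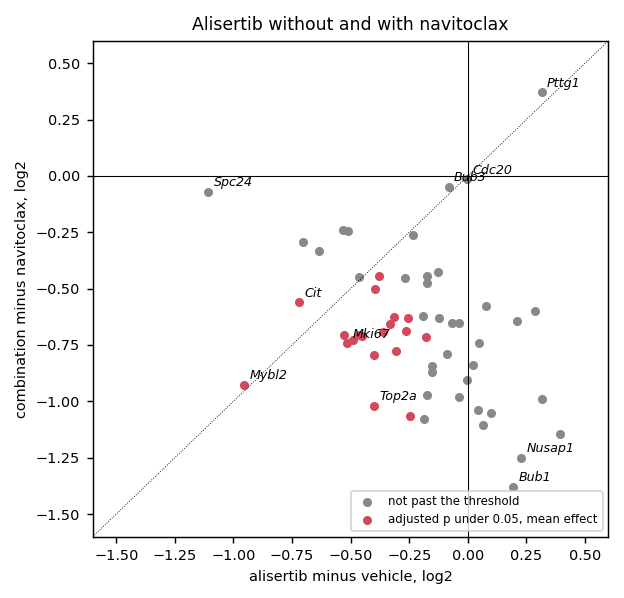
Each point is a mitotic gene, with alisertib minus vehicle (log2) on the horizontal axis and combination minus navitoclax (log2) on the vertical axis; red marks the 19 genes that fell in the mean of the effects, and the dotted line marks equal effects. Most points lie below 0 on both axes and below the dotted line, with Pttg1 above 0 on both.

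Genes of the same pathway outside the 56 were counted for the mean alisertib effect. Of 57 other mitotic genes tested, 9 fell and 2 rose, against 1.88% and 2.62% of all genes tested. The median over the 57 was −0.44, against −0.01 over all genes. Ncapg2, a condensin II subunit, fell by 0.75 ± 0.11 (adjusted p = 0.00320) and Mad1l1, a checkpoint protein that anchors MAD2, by 0.52 ± 0.09 (adjusted p = 0.0103). Gtse1, a microtubule-binding protein and a known p53 target, rose by 1.11 ± 0.16 (adjusted p = 0.00346), from 1076 to 2076 without alisertib to 2392 to 4197 with it. The other that rose was Ckap2, named after its value was seen, at 0.53 ± 0.13 (adjusted p = 0.0393). Plk1, the polo-like kinase that Aurora A activates, was at −0.42 ± 0.13 (adjusted p = 0.114).

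In the DREAM and MuvB list of 11, 1 rose and 1 fell, against 2.62% and 1.88% of all genes tested. Mybl1, the A-MYB gene and a relative of Mybl2, rose by 0.83 ± 0.18 (adjusted p = 0.0255). Rbl1, which encodes the DREAM subunit p107, fell by 0.60 ± 0.15 (adjusted p = 0.0489). Lin54, the MuvB subunit that contacts the CHR, was at −0.28 ± 0.09 (adjusted p = 0.110). Of 16 anaphase-promoting complex genes 15 did not pass and Anapc5 fell by 0.46 ± 0.08 (adjusted p = 0.0112), against 4.5% of all genes past the threshold. The next by p were Anapc15 at −0.47 ± 0.21 (adjusted p = 0.241) and Anapc1 at −0.28 ± 0.14 (adjusted p = 0.337). Cdkn1a, which encodes the CDK inhibitor p21, rose by 1.59 ± 0.14 (adjusted p = 0.000178) in the same comparison.

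Markers of other cell types also differed between libraries. Summed values of 10 macrophage markers were 1477 to 3406 with vehicle and 5293 to 12682 with alisertib. They were 3357 to 7454 with navitoclax and 7572 to 15652 with both. For the mean alisertib effect 3 of the 10 passed as higher, against 2.62% of all genes tested. All 6 erythroid markers tested had negative estimates, with a median of −1.99 and 0 past the threshold. Skeletal muscle markers summed to 89031 in navitoclax 1 and to at most 1086 in the other 11 libraries. B cell markers summed to 0 to 14.3, and keratinocyte markers to at most 2.81 except for 224 in combination 3. Fibroblast markers summed to 113784 in vehicle 2 and 175275 in combination 3, the libraries rich in ribosomal RNA, against 7835 to 49882 in the rest. Endothelial markers summed to 688 to 2288, adipocyte markers to 61.7 to 679, T and NK cell markers to 7.12 to 124 and neutrophil markers to 8.99 to 84.3. Among the markers of these lists that were tested, none but macrophage markers passed the threshold for the mean alisertib effect. Of B cell markers 0 of 4 were tested, and of keratinocyte markers 0 of 5, so these lists could not pass. Of T and NK cell markers 1 of 7 was tested, and of neutrophil markers 1 of 4. The part of these cells in the lower mitotic values was not tested.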

How the data were processed

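Total tumour RNA was depleted of ribosomal RNA and made into 12 directional libraries, per the labels' protocols. The authors deposited a normalized signal per gene and library. The genome builds in the submitters' processing notes are mm10 and GRCm38.p4. The tools listed there are DESeq2, featureCounts, Subread 1.5.1 and HISAT2 2.0.6, without their roles. In each library 100% of the deposited values were whole multiples of 1 step within 0.001, so reads were recovered by dividing by it. The strand setting of the counting is not given in the sources used here, so overlapping and near-identical genes are uncertain. Symbols and coordinates came from GENCODE M21 (GRCm38), which held all 56 identifiers. For navitoclax 3, the column was matched by its library code, since another part of the name differs.

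Differences were fitted with limma 3.58.1 in R 4.3.3 (group means, trended robust moderation, pseudocount 2). The script was first run on simulated reads with known changes. The alisertib effect is the mean of alisertib minus vehicle and combination minus navitoclax. Alternatives were edgeR 4.0.16, DESeq2 1.42.0 and limma-voom with quality weights on recovered reads, other scaling, filter, pseudocounts and samples, the ribosomal share as a covariate, and each library left out.

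The genes, their role groups, the pathway and marker lists and the tests were chosen with earlier results of these data known. Values in every library were given for genes past a threshold, the 5 with the smallest p in each comparison with vehicle and in the mean alisertib effect, and 1 example per role. Those of Pttg1 were given outside this rule. Other genes named are Plk1, Cdkn1a and the 3 of each pathway list with the smallest p for the mean alisertib effect; Ckap2 was named outside this rule. Libraries were numbered in accession order, and no number pairs libraries. Replicates correlated with r of 0.934 to 0.985 and none were duplicates. A value of 3 reads is 2.29 to 10.9, and precision refers to counting error only.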

Additional observations from a re-analysis of the deposited data

How the results depend on the processing

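The median difference over the 56 mitotic genes kept its direction in every alternative, from −0.52 to −0.40 for the mean alisertib effect and from −0.82 to −0.56 for the combination against navitoclax. Most medians that moved by over 1.5 times are given with their comparisons above. The others were −0.29 for alisertib against vehicle with voom and, with the ribosomal covariate, −0.25 for the interaction and −0.08 for adding navitoclax to alisertib. How many genes passed moved far more, and the cause was not tested. Counts follow in the order all genes, then mitotic genes, in either direction. Among the mitotic genes only Pttg1 was counted as higher. That was with DESeq2, voom and the covariate, in the mean alisertib effect and the combination against vehicle. For the mean alisertib effect (765 and 19) they were 3031 and 43 with voom, 3310 and 40 with the ribosomal covariate, and 1494 and 35 without both ribosomal-rich libraries. DESeq2 called 1708 of all genes and 25 mitotic genes. Fits without a filter tested 29711 genes, and in this comparison 511 and 8 passed. For the combination against navitoclax (202 and 3) DESeq2 gave 1097 and 25, voom 1628 and 37, the covariate 955 and 24, no filter 117 and 0, the compared groups alone 13 and 0, and the fit without both ribosomal-rich libraries 358 and 11; edgeR called 1 mitotic gene. For alisertib against vehicle (148 and 0) DESeq2 gave 680 and 2, voom 1241 and 6, the covariate 1068 and 6, and the compared groups alone 90 of all genes. For the combination against vehicle (431 and 0) DESeq2 gave 1245 and 8, voom 2107 and 20, the covariate 2561 and 22, the compared groups alone 66 of all genes, and a pseudocount of 8 let 1 mitotic gene pass. For navitoclax against vehicle (11 of all genes) the counts were 87 with DESeq2, 38 with voom, 20 with the covariate, 0 with the compared groups alone, 3 and 21 with pseudocounts of 0.5 and 8. For the interaction (1 of all genes) they were 10 with DESeq2, 3 with voom, 3 with a pseudocount of 8 and 0 without both ribosomal-rich libraries.

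With each library left out in turn, all genes and mitotic genes called ranged from 314 to 763 and from 5 to 21 for the mean alisertib effect, and from 53 to 293 and from 0 to 10 for the combination against navitoclax. They ranged from 49 to 198 and from 0 to 1 for alisertib, from 111 to 385 and from 0 to 1 for the combination, and from 2 to 20 of all genes for navitoclax, each against vehicle, and from 0 to 1 for the interaction. The 1 came without navitoclax 3 or combination 3 for alisertib and without navitoclax 3 for the combination. The 42 estimates of named genes, each refitted under the alternatives, gave 900 results, which share libraries. Of these, 705 kept direction and side of the threshold, 153 lost a call, 35 gained one and 7 changed sign. All 7 were Cdc20 in the mean alisertib effect, at 0.0018 with voom, 0.0022 without both ribosomal-rich libraries, and above 0 in 5 of the 12 fits with 1 library left out, which ranged from −0.051 to 0.042. No paired analysis was possible because the labels number no replicates. Combination 3 and vehicle 2, with the fewest reads outside the ribosomal loci, limit the precision of low genes such as Cdkn3 and Kif18a.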
